A study of Mus musculus with 68 samples.

Results

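The nuclear genes for the mitochondrial respiratory chain and ATP synthase were followed through mouse somatic cell nuclear transfer (SCNT) development and after morpholino injection of fertilized embryos. Members were the genes whose names begin with Nduf followed by a, b, c, s or v, with Cox4 to Cox8, with Uqcr or with Atp5, together with Sdha, Sdhb, Sdhc and Sdhd. This rule took 92 of 24421 annotated genes. They comprised 38 genes listed under complex I, 7 assembly factors of complex I (Ndufaf1 to Ndufaf7), 4 genes of complex II, 8 of complex III, 18 of complex IV, 15 of complex V, and Atp5s and Atp5sl, which are not subunits of the ATP synthase.

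Oxidative phosphorylation runs in the inner mitochondrial membrane. Complex I (NADH dehydrogenase) and complex II (succinate dehydrogenase, also an enzyme of the TCA cycle) pass electrons to ubiquinone, complex III (the cytochrome bc1 complex) passes them to cytochrome c, and complex IV (cytochrome c oxidase) passes them to oxygen. Complexes I, III and IV pump protons, and complex V (ATP synthase) uses the gradient to make ATP. Most subunits are encoded in the nucleus and imported, while a small core is encoded by mitochondrial DNA. Oocytes and cleavage embryos hold many structurally immature mitochondria, and respiration is known to increase towards the blastocyst.

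The study collected Smart-seq2 libraries, which amplify polyadenylated RNA from few cells, to follow cloned embryos and to test 2 factors in fertilized ones. BDF1 mice (B6D2F1 in the study's methods) gave the oocytes, which were enucleated and received a cumulus cell nucleus. Cumulus cells (CC, 3 libraries) were the nuclear donor type, and SCNT embryos were taken at 6 and 14 hours post activation (hpa) and at the early (E2C) and late 2-cell (L2C), 4-cell (4C) and 8-cell (8C) stages, as morulae, and as the ICM (inner cell mass) and TE (trophectoderm) of the blastocyst. Each SCNT group had 6 libraries, except 4C with 5. The 4C library labelled replicate 5 bears the number 6 in its deposited name, and the label was used. In the other experiment, C57BL/6j zygotes were injected with a control, a Max or an Mcrs1 morpholino (MO), and ICM and TE were taken, with 2 libraries in each of the 6 groups; the labels call the control samples untreated, whereas the protocol names a random control morpholino. For these libraries the study gives a higher concentration for the control morpholino than for the Max and Mcrs1 morpholinos. An effect of this unequal dose was not tested. The study's methods give 10 blastomeres per Smart-seq2 reaction and name no separate cell number for CC. The study describes the SCNT libraries as biologically independent and those of the morpholino groups as biological replicates, whereas for CC no source used here says whether they came from separate mice.

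Values were TPM, the level of a transcript per length, scaled to the total of its library. Annotated genes are listed beside unnamed assembled loci, and 94.0% to 99.4% of the annotated rows with at least 1 TPM overlapped such a locus on the same strand, so most transcripts are listed in both. The TPM of annotated genes came to 30.4% to 90.9% of the TPM of these loci in the SCNT libraries, with the lowest values in L2C replicate 1 (30.4%) and 4C replicate 1 (44.0%), and from 85.5% to 94.4% in the MO libraries. Between 6177 and 11771 genes reached 1 TPM, and the lowest number was in an SCNT ICM library. The tables hold no counts, so read numbers are unknown. The ratio of coverage (a mean read signal per base) to FPKM (a level scaled by length and depth) served as a relative measure of depth. It ran from 1.00 to 5.16 over all libraries and was lowest in control MO TE replicate 1. Control MO TE replicate 2 had 2.23, Max MO TE 3.19 and 3.05, and Mcrs1 MO TE 2.25 and 2.09. An effect of depth was not tested. Cumulus markers summed to 1834 to 3128 TPM in CC and to at most 66.6 TPM in any SCNT group, and oocyte markers to 3989 to 7895 TPM at 6 hpa against at most 2.23 TPM in CC. The library labelled control MO ICM replicate 1 stood apart, because its 7 TE markers summed to 16260 TPM, close to the 18610 and 20790 TPM of the control MO TE libraries, whereas the other control MO ICM library held 622 TPM.

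To show the upstream sequence of genes that the results turn on, 5 promoters are printed, from the RefSeq promoter windows of GRCm38.p6 (250 bases before to 50 after the start). A window was matched by symbol for 73 of 92 members. Atp5g1 and Atp5g3 encode the same mature c subunit of the ATP synthase, Cox6a1 a complex IV subunit that was higher in all 4 MO comparisons, Atp5j a subunit of the ATP synthase stalk that rose steeply after the 1-cell stage, and Ndufaf4 an assembly factor that fell. The windows lie at chr11:96075632-96075881 (- strand) for Atp5g1, chr2:73911327-73911576 (- strand) for Atp5g3, chr5:115348959-115349208 (- strand) for Cox6a1, chr16:84834977-84835226 (- strand) for Atp5j and chr4:24897833-24898082 (+ strand) for Ndufaf4. They are written 5′ to 3′ on the strand of the gene and end 1 base before the RefSeq start used. Matches to the 4 motifs described next are in capitals.
Atp5g1: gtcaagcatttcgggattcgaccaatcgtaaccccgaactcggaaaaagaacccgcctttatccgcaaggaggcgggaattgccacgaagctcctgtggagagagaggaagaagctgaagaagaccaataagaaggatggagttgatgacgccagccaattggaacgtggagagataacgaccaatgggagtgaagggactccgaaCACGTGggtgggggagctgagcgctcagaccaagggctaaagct
Atp5g3: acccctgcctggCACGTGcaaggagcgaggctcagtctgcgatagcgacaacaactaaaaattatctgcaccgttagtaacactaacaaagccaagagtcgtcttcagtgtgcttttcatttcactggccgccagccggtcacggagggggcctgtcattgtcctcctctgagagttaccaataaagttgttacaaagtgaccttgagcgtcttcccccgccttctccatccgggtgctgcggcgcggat
Cox6a1: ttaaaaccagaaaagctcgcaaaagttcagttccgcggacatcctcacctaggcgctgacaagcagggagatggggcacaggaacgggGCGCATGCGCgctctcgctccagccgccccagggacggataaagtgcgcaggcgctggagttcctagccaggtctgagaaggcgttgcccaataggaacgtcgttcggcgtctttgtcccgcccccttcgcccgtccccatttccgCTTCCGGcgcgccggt
Atp5j: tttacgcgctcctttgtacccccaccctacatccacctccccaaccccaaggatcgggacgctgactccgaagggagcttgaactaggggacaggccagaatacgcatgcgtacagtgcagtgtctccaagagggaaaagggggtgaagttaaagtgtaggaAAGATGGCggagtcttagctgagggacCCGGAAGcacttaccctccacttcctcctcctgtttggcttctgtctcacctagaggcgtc
Ndufaf4: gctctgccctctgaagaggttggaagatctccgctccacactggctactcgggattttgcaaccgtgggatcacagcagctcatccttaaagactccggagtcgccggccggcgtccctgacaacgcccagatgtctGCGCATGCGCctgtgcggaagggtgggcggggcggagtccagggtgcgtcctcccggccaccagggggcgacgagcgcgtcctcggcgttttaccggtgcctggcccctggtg

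The motifs of 4 factors linked to these genes or to the knockdown were searched on both strands. The E-box CACGTG, the site read by MAX with MYC, was in 7.69% of 78 member windows against 7.15% of all 32851 windows. GCATGCGC, the core of the palindromic NRF1 site, was in 15.4% against 2.71%. CCGGAAG, read by ETS factors such as GABPA, was in 21.8% against 8.86%, and AAGATGGC, read by YY1, in 11.5% against 2.75%. Among the printed promoters, the E-box of Atp5g1 begins 44 bases before the RefSeq start used and that of Atp5g3 238 bases before it. The E-box of Atp5g1 lies inside the span of the gene in the expression data (96072793 to 96075694). Cox6a1 and Ndufaf4 each hold overlapping NRF1 cores on both strands, and Cox6a1 also an ETS match. The printed Atp5j window holds a YY1 match 88 bases and an ETS match 61 bases before the RefSeq start used. A further Atp5j window, not printed, holds none of the 4 motifs. The printed window lies inside the span of the gene in the expression data (84827871 to 84835625). A match is a description of letters and not a bound site.

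Over SCNT development the members shared a broad pattern, low levels in the 1-cell embryo and high levels in the blastocyst. The median member was at 16.8 to 32.0 TPM in the 6 hpa libraries, 28.4 to 32.7 TPM at E2C, 44.7 to 81.6 TPM at L2C, 147 to 223 TPM at 4C, 154 to 274 TPM at morula and 278 to 394 TPM in the TE. All members together took 0.622% to 0.951% of annotated TPM at 6 hpa, 1.70% to 2.83% at L2C, 3.40% to 4.22% at 4C and 3.91% to 5.06% in the TE, next to 3.22% to 3.97% in CC. The highest group mean was in the TE for 48 members, in the ICM for 14, at 4C for 9, at morula for 6, at 8C for 5, at 14 hpa for 4, at L2C for 3 and at E2C for 1. The lowest was at 6 hpa for 49 members and at 14 hpa for 14. Cox8b and Ndufa4l2 stayed below a mean of 1 TPM at every SCNT stage. TPM are shares of a library, so a higher share cannot be told apart from a loss of other transcripts, nor fewer cells of a type from less RNA per cell.

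**Figure D1:**
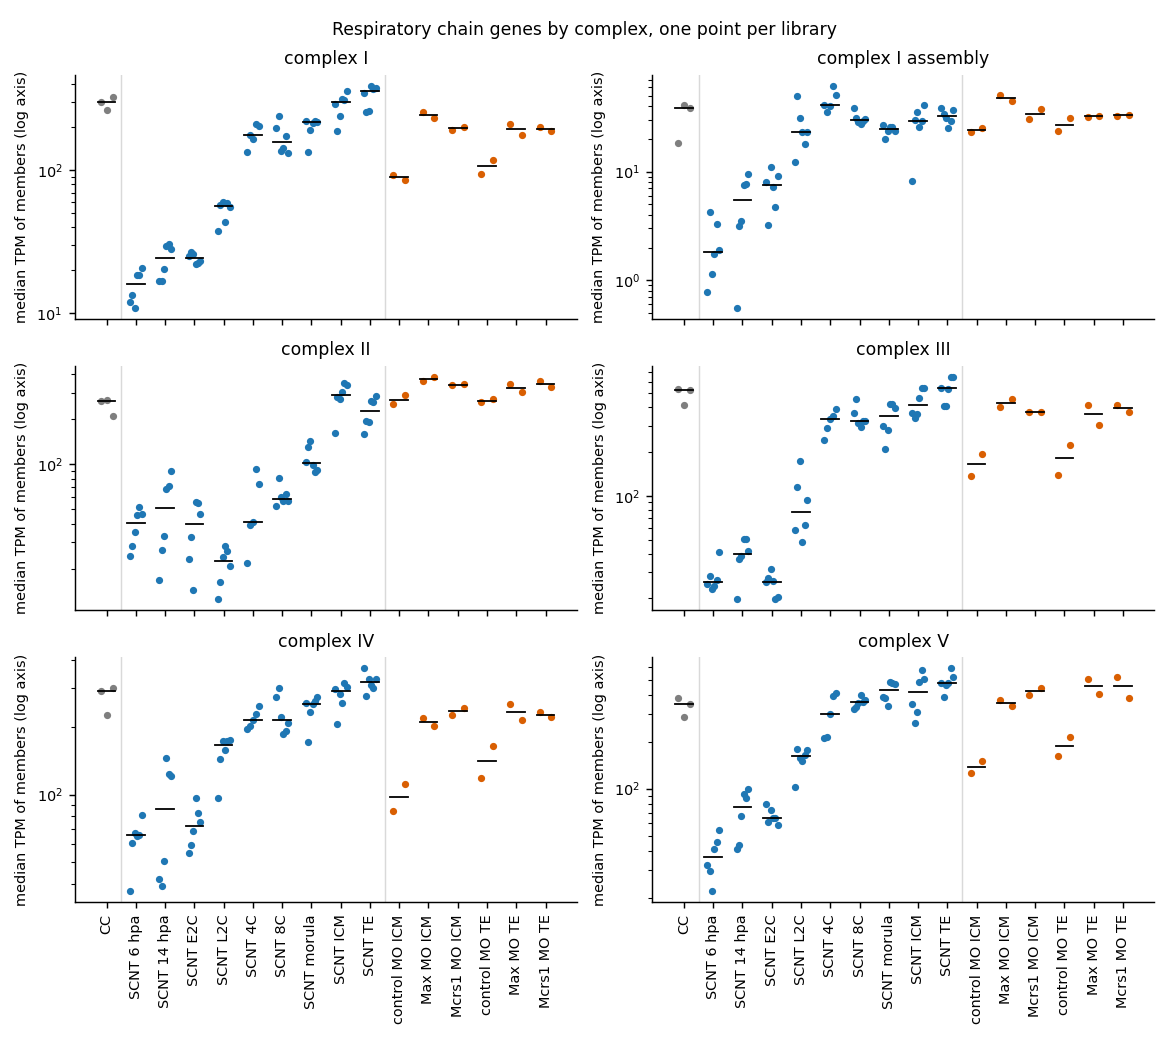
Median TPM of the members of each complex (log axis) in every library, by group; grey points are CC, blue SCNT and orange morpholino libraries, and the bar is the group median. Complex I libraries sit at 11.0 to 20.8 TPM at 6 hpa and at 256 to 392 TPM in the TE. The complex II median is lowest at L2C (12.5 to 28.3 TPM).

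The library medians of complexes I, III, IV and V were higher in every 4C library than in every 6 hpa library. Those of complex II overlapped. Its library sums did not, with 104 to 203 TPM at 6 hpa and 471 to 580 TPM at 4C. The library medians of complex I were 11.0 to 20.8 TPM at 6 hpa, 37.6 to 60.3 TPM at L2C and 135 to 211 TPM at 4C, without overlap between these stages. Complex III went from 23.2 to 41.4 TPM at 6 hpa through 48.4 to 173 TPM at L2C to 239 to 388 TPM at 4C. Complex V was at 22.1 to 54.3 TPM at 6 hpa, 103 to 180 TPM at L2C, 211 to 412 TPM at 4C and 340 to 486 TPM at morula. Complex IV started higher, at 37.2 to 81.1 TPM at 6 hpa, and was at 197 to 249 TPM at 4C and 171 to 273 TPM at morula. Complex II was at 24.2 to 52.1 TPM at 6 hpa, 12.5 to 28.3 TPM at L2C, 21.7 to 93.3 TPM at 4C, 88.3 to 144 TPM at morula and 161 to 349 TPM in the ICM.

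**Figure D2:**
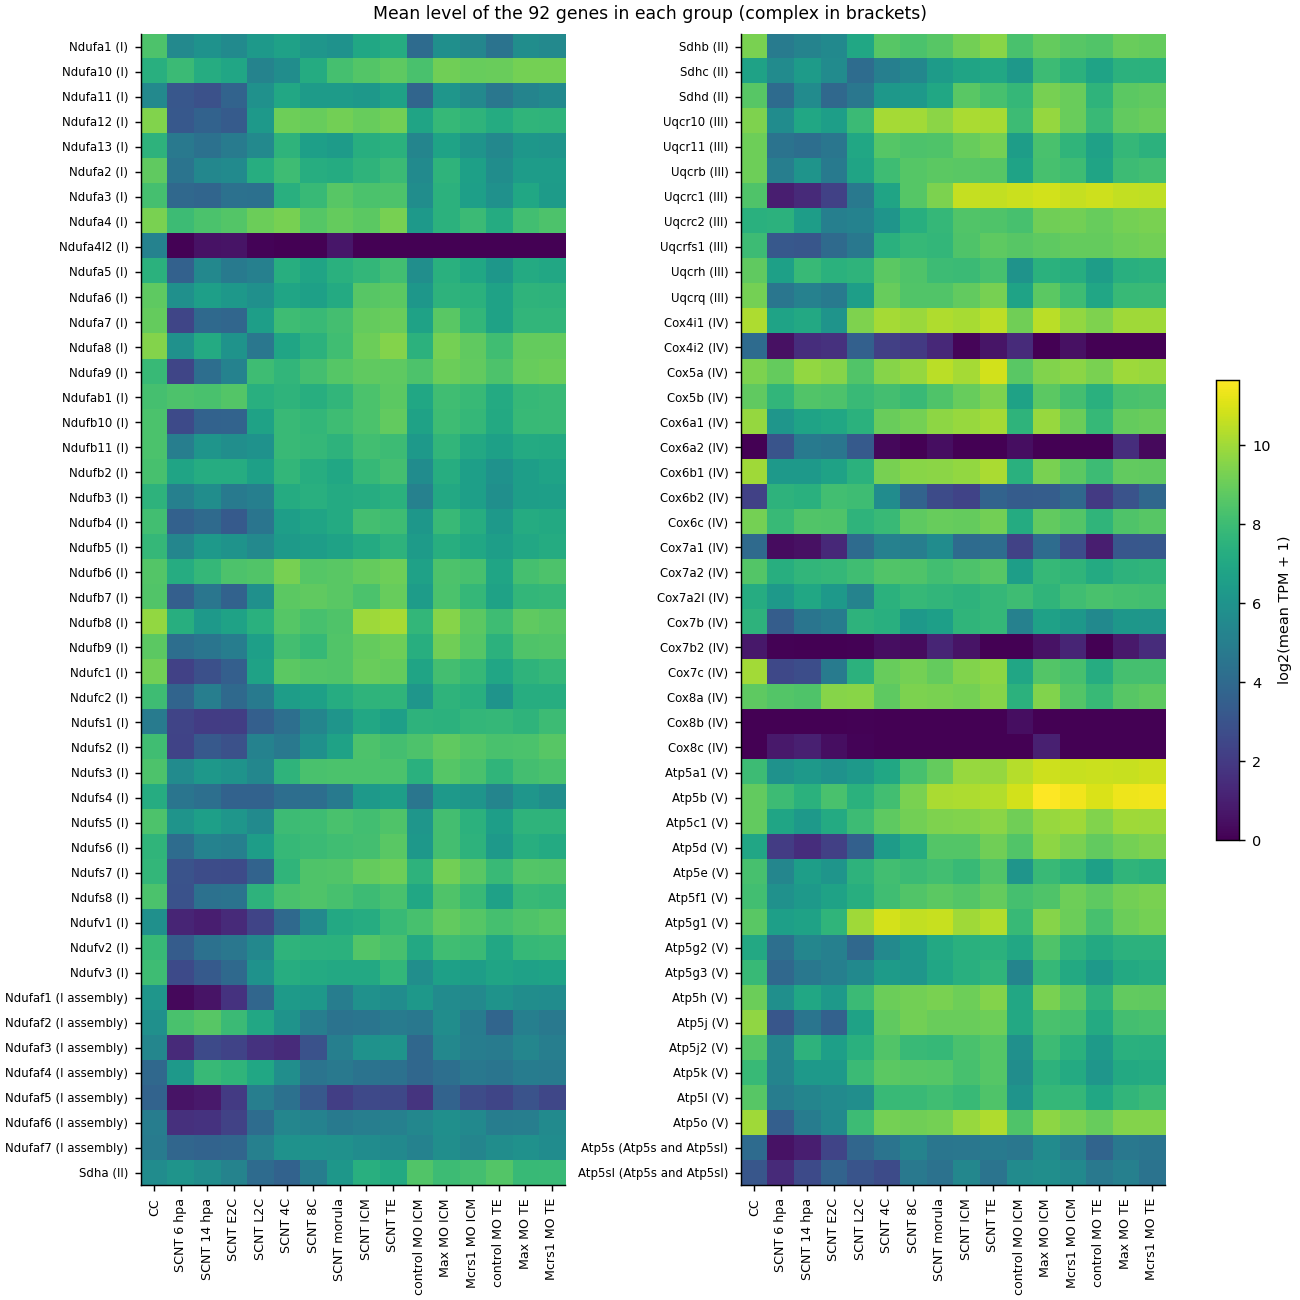
Mean level of each of the 92 genes (rows, with the complex in brackets) in each of the 16 groups (columns), coloured by log2(mean TPM + 1). Most rows are dark from 6 hpa to E2C and bright from 4C; Ndufaf2, Ndufaf4, Cox6a2 and Cox6b2 run the other way.

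Compared with the donor cell type, most respiratory chain genes took a smaller share of TPM at 6 hpa. A gene was called where the adjusted p of limma over all genes was under 0.05 and the change at least 2-fold, and rose and fell are used for called genes only. Of 89 members that passed the filter of a mean of 1 TPM, 77 were lower and 4 higher at 6 hpa than in CC, against 35.6% of all genes lower and 25.8% higher. Members had a median log2 fold change of -3.39, and all genes one of -0.28. By complex, 36 of 38 tested genes were lower in complex I, 3 of 4 in complex II, 7 of 8 in complex III, 11 of 15 in complex IV and 14 of 15 in complex V.

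Cox7c, a small subunit of complex IV, held 770, 954 and 1448 TPM in CC and 1.37, 4.18 and 11.8 TPM as the lowest, median and highest of 6 hpa, and fell by 7.67 ± 0.47 (SE) on the log2 scale (adjusted p 9.50e-21). Uqcrc1, a core subunit of complex III, held 250, 395 and 398 TPM in CC and at most 2.38 TPM at 6 hpa (log2 fold change -7.54 ± 0.48). Ndufc1 of complex I (-6.98) and Atp5j of complex V (-6.64) were next, and the libraries of the groups did not overlap for any of these 4 genes.

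A few members ran the other way. Cox6b2, the testis form of complex IV subunit 6b, was at 2.47, 3.16 and 5.83 TPM in CC and at 113, 182 and 267 TPM (lowest, median, highest) at 6 hpa, a log2 fold change of 5.29 ± 0.56 (adjusted p 5.57e-12). Cox6a2, the heart and muscle form of subunit 6a, was listed at 0 in all 3 CC libraries and at 5.29 to 9.83 TPM at 6 hpa. The complex I assembly factors Ndufaf2 (288 to 356 TPM at 6 hpa against 43.2 to 67.4 TPM) and Ndufaf4 (50.3 to 122 TPM against 13.3 to 15.7 TPM) were the other 2 called higher. Uqcrc2, the partner core subunit of Uqcrc1, was at 101 to 236 TPM at 6 hpa and 163 to 176 TPM in CC and was not called. Sdha, the flavoprotein of complex II, was at 52.4 to 83.1 TPM at 6 hpa and 47.3 to 52.2 TPM in CC, and was not called either.

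Levels at 6 hpa were unequal within a complex. At 6 hpa the 10 most abundant members, led by Cox5a (mean 476 TPM), Cox8a (375 TPM) and Ndufab1 (336 TPM), made up 50.7% of the TPM of all members, against 33.2% for the 10 most abundant in the TE and 30.0% in CC. Within complex III, the highest 6 hpa library for Uqcrc1 (2.38 TPM) was far under the lowest for Uqcrc2 (101 TPM). Within complex II, Sdhb, the iron-sulfur subunit, was at 14.2 to 36.9 TPM at 6 hpa and Sdhd, a membrane anchor, at 3.11 to 25.2 TPM, both under Sdha.

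Between 6 and 14 hpa, 19 of 88 tested members rose and 2 fell, while 6.14% of all genes were higher and 4.94% lower. Atp5j2, a subunit of the membrane part of the ATP synthase, was at 22.1 to 59.5 TPM (median 39.1) at 6 hpa and at 123 to 211 TPM (median 195) at 14 hpa, without overlap (log2 fold change 2.25 ± 0.22, adjusted p 5.57e-11). Ndufa5 rose by 1.80 and Ndufa9 by 1.77 on the log2 scale, both accessory subunits of complex I, and Ndufaf4 by 1.67, from 50.3 to 122 TPM to 213 to 256 TPM. Ndufb8 fell from 105 to 212 TPM to 49.0 to 92.0 TPM, and Uqcrc2, the other decrease, had 101 to 236 TPM against 23.4 to 148 TPM, which overlapped. Complex V had 6 rising genes of 15, complex I 8 of 37, complex III 2 of 8, complex IV 2 of 15 and complex II 0 of 4.

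From 14 hpa to E2C little was called. Cox7c and Cox8a rose and Ndufa8, Uqcrb, Uqcrc2 and Ndufc2 fell, 2 and 4 of 88 members, while 2.78% of all genes were higher and 3.05% lower. Ndufc2 was the only one of these 6 without overlap, with 26.1 to 33.6 TPM at 14 hpa and 6.52 to 17.8 TPM at E2C (log2 fold change -1.04 ± 0.26, adjusted p 0.00749). The libraries numbered 1 to 3 and 4 to 6 gave opposite results in this step. With 1 to 3 alone 21 members were higher and 2 lower, with 4 to 6 alone 0 were higher and 14 lower, and whether a batch lies behind these numbers was not tested.

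The late 2-cell stage, when the embryonic genome of the mouse is broadly transcribed, brought the first large step. Of 88 members 36 rose and 8 fell from E2C to L2C, next to 23.7% of all genes higher and 11.2% lower, and the members' median log2 fold change was 0.77 against 0.26 for all genes. Ndufc1 went from 2.54 to 25.3 TPM (median 7.67) to 68.5 to 145 TPM (median 102), a log2 fold change of 3.61 ± 0.32 (adjusted p 5.27e-13). Ndufa9 (3.42), the complex I assembly factor Ndufaf5 (3.33) and Cox4i1, the main form of complex IV subunit 4 (3.22), followed, each without overlap. Complex III had 5 of 8 genes higher and none lower, complex I 15 of 37 higher and 3 lower, complex V 6 of 15 higher and 1 lower, complex IV 5 of 15 higher and 3 lower.

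The 8 members that fell included Cox5a and Ndufab1, which were among the 3 most abundant at 6 hpa. Ndufab1, the mitochondrial acyl carrier protein and a complex I subunit, was at 253 to 504 TPM at E2C and at 80.3 to 233 TPM at L2C (-1.21 ± 0.26). Cox5a, a complex IV subunit and the most abundant member at 6 and 14 hpa, was at 604 to 811 TPM and then at 248 to 434 TPM (-1.04 ± 0.19, adjusted p 2.11e-05). Sdhc, Ndufa10, Cox7a2l, Cox6a2, Atp5g2 and Ndufa8 were the other 6, and their libraries overlapped between the stages. The split of higher and lower members depended on scaling. It was 44 and 4 with TPM rescaled over annotated genes, 34 and 12 with quantile normalization and 28 and 18 with the trend on gene length removed.

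From L2C to 4C 46 of 88 members rose and 4 fell, whereas 11.8% of all genes were higher and 26.6% lower, and the median log2 fold change was 1.10 for the members and -0.33 for all genes. With the length trend removed these medians were 1.24 and 0.08, and with quantile normalization 1.00 and 0.09, so the sign for all genes depended on scaling. Ndufs7, a core subunit of complex I, was at 0.652 to 22.2 TPM (median 12.7) at L2C and at 75.1, 204, 152, 257 and 303 TPM in the 5 libraries of 4C (log2 fold change 4.17 ± 0.49, adjusted p 8.13e-10). Ndufaf1 (3.61), Ndufa3 (3.15) and Ndufb7 (3.02) were next, all without overlap. Ndufb7 was at 30.6 to 116 TPM at L2C and at 427, 458, 358, 378 and 477 TPM at 4C. Of complex III 7 of 8 genes rose, of complex I 24 of 37, of complex V 7 of 15, of complex II 2 of 4 and of complex IV 4 of 15.

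Cox6b2, Cox6a2, Ndufaf4 and Cox4i2 fell in this step. Cox6b2 had 103 to 390 TPM (median 273) at L2C and 52.5, 87.4, 57.7, 23.8 and 32.0 TPM at 4C, a fall of 2.32 ± 0.49 on the log2 scale (adjusted p 9.42e-05). Cox6a2 went from 2.64 to 12.8 TPM to at most 0.537 TPM, and Ndufaf4 from 90.6 to 157 TPM to 41.2, 54.2, 61.9, 61.9 and 50.6 TPM. Cox4i2, the lung and hypoxia form of subunit 4, was also called lower, with overlap. Hba-a1, a globin gene from the blood marker list, peaked in the same 2 groups: 1 of the 3 blood markers reached a mean of 1 TPM there, and their sum was 19.4 to 384 TPM at L2C and 52.9 to 908 TPM at 4C and at most 105 TPM elsewhere; its part in these results was not tested.

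**Figure D3:**
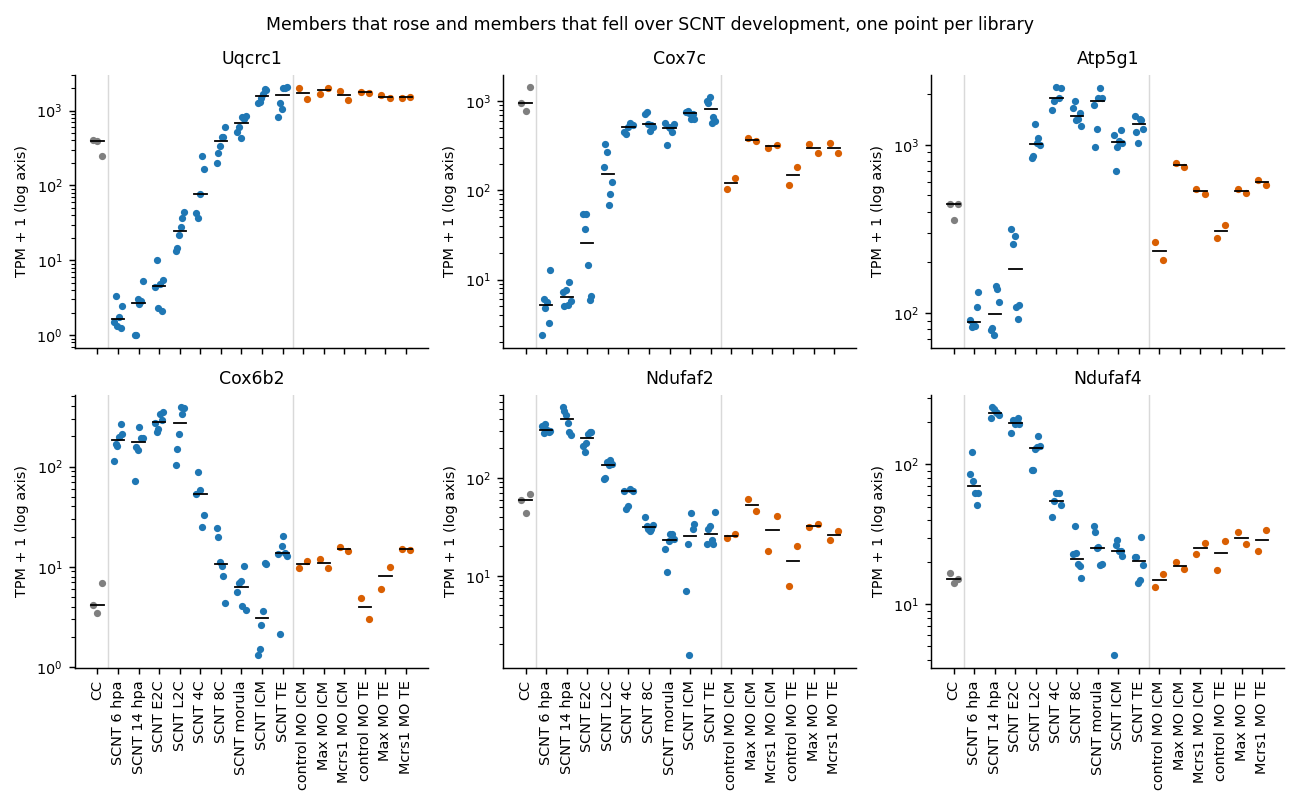
TPM + 1 (log axis) of 6 members in every library, by group; grey points are CC, blue SCNT and orange morpholino libraries, and bars are group medians. Uqcrc1, Cox7c and Atp5g1 are higher at morula than at 6 hpa in every library, and Cox6b2, Ndufaf2 and Ndufaf4 are lower in every one.

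After 4C the changes were few. Between 4C and 8C, 8 of 88 members rose and 2 fell, against 11.5% and 8.23% of all genes. Ndufa10 had 11.7, 56.2, 30.2, 71.3 and 87.7 TPM at 4C and 124 to 186 TPM at 8C (1.75 ± 0.45), and Uqcrc2 had 55.7, 32.0, 38.7, 101 and 106 TPM and then 139 to 180 TPM (1.39 ± 0.32). Cox6b2 fell again, by 2.07 ± 0.49, to 3.35 to 23.3 TPM, and Ndufaf4 fell as well (-1.31 ± 0.30). The direction of the step depended on scaling, since 3 members were higher and 11 lower with TPM rescaled over annotated genes, 5 and 9 with quantile normalization and 6 and 6 with the length trend removed. With replicates 1 to 3 alone 14 rose and 3 fell.

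Between 8C and morula 2 of 88 members rose and 1 fell, against 8.74% and 3.48% of all genes. The assembly factor Ndufaf3 went from 3.74 to 13.0 TPM to 20.1 to 58.4 TPM (2.11 ± 0.48, adjusted p 0.00144), and Ndufv1, the flavoprotein of complex I that takes electrons from NADH, from 12.6 to 77.7 TPM to 89.3 to 169 TPM (1.71 ± 0.59, adjusted p 0.0427). Ndufaf5 fell, with overlap. At an unadjusted p under 0.05 the count was 20, with no share of all genes computed beside it. The calls depended on the setting, with 0 at a pseudocount of 0.1, 7 with a replicate block, 13 with replicates 4 to 6 alone and 1 without replicate 1, 4 or 5.

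Across the whole span from 6 hpa to morula, 71 of 88 members rose and 4 fell, while 42% of all genes were higher and 29% lower. The median log2 fold change was 3.08 for the members and 0.58 for all genes. All 15 genes of complex V rose, 31 of 37 of complex I, 7 of 8 of complex III, 9 of 15 of complex IV, 2 of 4 of complex II and 5 of 7 complex I assembly factors. The 7 core subunits of complex I all rose, with a median log2 fold change of 4.51.

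Uqcrc1 had the largest change, from 0.264 to 2.38 TPM (median 0.621) at 6 hpa to 429 to 832 TPM (median 687) at morula (8.46 ± 0.40, adjusted p 4.10e-25). Cox7c (6.57), Atp5d, the delta subunit of the ATP synthase (6.56), and Ndufc1 (6.33) were next. The 4 members that fell were Cox6b2 (-4.92 ± 0.46), Ndufaf2 (-3.92 ± 0.39), Cox6a2 (-2.66 ± 0.30) and Ndufaf4 (-1.53 ± 0.29), and in all 4 the highest morula library was under the lowest 6 hpa library. Ndufaf2 went from 288 to 356 TPM to 10.0 to 26.0 TPM. Uqcrc2 was at 101 to 236 TPM and 187 to 247 TPM and was not called.

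Of the isoform sets, the Cox6b pair changed its main form between the 2-cell and 4-cell stages, while Cox6a1, Cox7a2, Cox4i1 and Atp5g1 held over 50% of their sets in every SCNT library. Cox6b2 made up 65.7% to 73.7% of the TPM of Cox6b1 and Cox6b2 at 6 hpa, 39.3% to 68.6% at L2C, 3.22% to 13.7% at 4C and 0.522% to 2.52% at 8C, while Cox6b1, the ubiquitous form, grew from 40.3 to 109 TPM at 6 hpa to 638 to 1024 TPM at 8C. Cox6a2 made up 15.8% to 31.1% of its pair with Cox6a1 at 14 hpa and was listed at 0 in every 8C library. Cox7a1, the heart and muscle form of subunit 7a, went the other way. It held at most 0.77% of its pair with Cox7a2 at 6 hpa and 10.7% to 18.8% at morula, and fell again in the ICM (-1.80 ± 0.43) and TE (-1.41 ± 0.43), where it held 0.557% to 9.64% and 2.67% to 5.21%. Atp5g1 held 69.4% to 83.0% of the 3 c-subunit genes at 6 hpa, 93.3% to 96.0% at L2C and 71.6% to 82.3% in the TE, next to 51.4% to 54.6% in CC.

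Cox8b and Cox7b2, further forms of subunits 8 and 7b, did not exceed 3.12 TPM in any library, and Cox8c, a germ cell form, reached 2.02 TPM at 14 hpa and 2.10 TPM in 1 Max MO ICM library. Ndufa4l2, known as a hypoxia-induced gene, was at 17.5, 39.9 and 48.5 TPM in CC and at most 2.72 TPM in any SCNT library. Cox4i2 was at 15.5 to 16.5 TPM in CC, at 0.148 to 0.797 TPM at 6 hpa and at 4.93 to 20.7 TPM at L2C.

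The most abundant genes listed under each complex give the levels in the other groups. Among genes put under complex I by name alone, Ndufa4 had group medians of 252 TPM at 6 hpa and 567 TPM at 4C. Its median was 582 TPM in the TE and 642 TPM in CC. The order 6 hpa, 14 hpa (304 TPM) and E2C (364 TPM) overlapped at each step. Ndufb8 had 164 TPM at 6 hpa, 79.4 TPM at 14 hpa, 373 TPM at morula and 1103 TPM in the TE. Of complex III, Uqcr10 had 45.9 TPM at 6 hpa, 206 TPM at L2C and 1111 TPM at 4C, and stayed between medians of 898 and 1155 TPM from 8C on. Of complex IV, Cox5a had medians of 457 TPM at 6 hpa, 942 TPM at 14 hpa, 373 TPM at L2C and 1733 TPM in the TE, and Cox4i1 106, 126, 494 and 1514 TPM in these groups. Of complex V, Atp5g1 had 87.1 TPM at 6 hpa, 1007 TPM at L2C and 1891 TPM at 4C, its highest. Atp5b, the catalytic beta subunit, had 266, 165 and 219 TPM there and 1239 TPM in the TE. No TE library lay near this median, since replicates 1 to 3 had 629, 757 and 613 TPM and replicates 4 to 6 had 1730, 1722 and 2094 TPM.

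The 4 genes of complex II did not share one course between L2C and morula. Sdha had medians of 62.1 TPM at 6 hpa, 15.3 TPM at L2C, 54.2 TPM at morula and 160 TPM in the ICM, and 24.2, 8.91, 6.79, 7.83 and 11.0 TPM in the 4C libraries. Sdhb rose from 67.1 to 193 TPM at L2C to 422, 383, 399, 386 and 376 TPM at 4C. Sdhc was at 25.3 to 68.3 TPM at 6 hpa and 3.22 to 28.9 TPM at L2C, and Sdhd at 74.8 to 196 TPM at morula and 223 to 461 TPM in the ICM. So Sdha had its lowest group median at 4C, in the same libraries in which every value of Sdhb was above its highest at L2C.

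From morula to blastocyst, 11 of 88 members rose and 1 fell in the ICM, and 13 rose and 1 fell in the TE. The background was 8.96% higher and 15% lower in the ICM and 11% higher and 10.8% lower in the TE. Both comparisons share the morula libraries. Ndufs4, an accessory subunit of complex I, was at 16.8 to 40.3 TPM (median 25.3) at morula, 59.6 to 89.1 TPM (79.5) in the ICM and 78.9 to 110 TPM (89.2) in the TE, with log2 fold changes of 1.58 ± 0.25 and 1.80 ± 0.25. Ndufb8 changed by 1.55 and 1.73 and Ndufa6 by 1.45 and 1.63, without overlap in either. Sdhd rose in the ICM (1.75 ± 0.63, adjusted p 0.0326) and Ndufa8 in the TE (1.46 ± 0.32, adjusted p 0.000447). Of complex I 7 and 9 genes of 37 rose, of complex V 0 and 1 of 15. The 12 calls in the ICM became 19 with the length trend removed and with replicates 4 to 6 alone, and the 14 in the TE 22 with quantile normalization.

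Between SCNT ICM and SCNT TE, 0 members were higher and 1 was lower in the ICM, while 1.47% of all genes were higher and 3.87% lower. That member was Cox6b2, with 0.311, 2.10 and 10.0 TPM as the lowest, median and highest in the ICM and 1.13, 12.7 and 19.4 TPM in the TE (-1.59 ± 0.46, adjusted p 0.0295), and the libraries overlapped. It was lost without replicate 1, 3 or 4, without the filter and with quantile normalization. Cox5a and Atp5o, a stalk subunit of the ATP synthase, were the 2 members without overlap. Cox5a was at 668 to 1395 TPM in the ICM and 1622 to 2341 TPM in the TE (-0.80 ± 0.19, adjusted p 0.00715), short of a 2-fold change, and Atp5o at 878 to 1060 and 1143 to 1458 TPM (-0.39 ± 0.24, adjusted p 0.398). In all 6 same-numbered pairs of ICM and TE libraries, the median and the sum of all members were lower in the ICM. The medians, 202 to 348 TPM against 278 to 394 TPM, overlapped between the groups. No label says that the numbers pair the libraries. The members' median log2 fold change was -0.28, next to -0.08 for all genes. Of 88 members, 16 had a log2 fold change above 0 and 13 an unadjusted p under 0.05. Shares of all genes without overlap, above 0 or with such a p were not computed, so these counts have no background. ICM replicates 1 to 3 held the fewest genes at 1 TPM or more (6177 to 6771), and with replicates 1 to 3 alone 3 members were lower and with 4 to 6 alone 0. ICM markers summed to 211 to 764 TPM in the ICM and to 62.9 to 338 TPM in the TE, and TE markers to 2034 to 8506 TPM and 5143 to 16190 TPM, so the markers overlapped too.

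The morpholino experiment asked what happens when the factor MAX, the partner of MYC proteins, or MCRS1, a subunit of chromatin complexes, is reduced. In the ICM, Max had 38.0 and 8.42 TPM under control MO against 6.82 and 0.443 TPM under Max MO (-2.51 ± 0.80, adjusted p 0.0397), and at 34.5 and 28.5 TPM against 16.3 and 8.68 TPM in the TE (-1.32 ± 0.80, adjusted p 0.390). Mcrs1 was at 253 and 310 TPM against 86.8 and 73.4 TPM in the Mcrs1 MO ICM (-1.80 ± 0.21, adjusted p 0.00333), and at 219 and 294 TPM against 41.1 and 45.5 TPM in the TE (-2.53 ± 0.21, adjusted p 0.000868). Each targeted gene was lower in both libraries than in both controls, although a morpholino can block a transcript without lowering its level.

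Respiratory chain genes were higher with both targeting morpholinos than with the control morpholino, which was injected at a higher concentration. In the Max MO ICM 58 of 86 tested members rose and 0 fell against the control MO ICM, where 8.65% of all genes were higher and 15.1% lower, and the median log2 fold change was 1.47 for the members and -0.21 for all genes. In the Mcrs1 MO ICM 40 rose and 0 fell, against 4.88% and 5.21%, with medians of 0.99 and -0.05. In the TE 10 members rose and 0 fell with Max MO, against 1.04% and 1.45%, and 16 rose and 0 fell with Mcrs1 MO, against 1.77% and 3.31%. The Max and Mcrs1 comparisons share their control libraries, so they are not independent. The share of annotated TPM held by all members was 1.88% and 1.96% in the control MO ICM, 3.67% and 3.78% with Max MO, and 2.97% in both libraries with Mcrs1 MO.

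**Figure D4:**
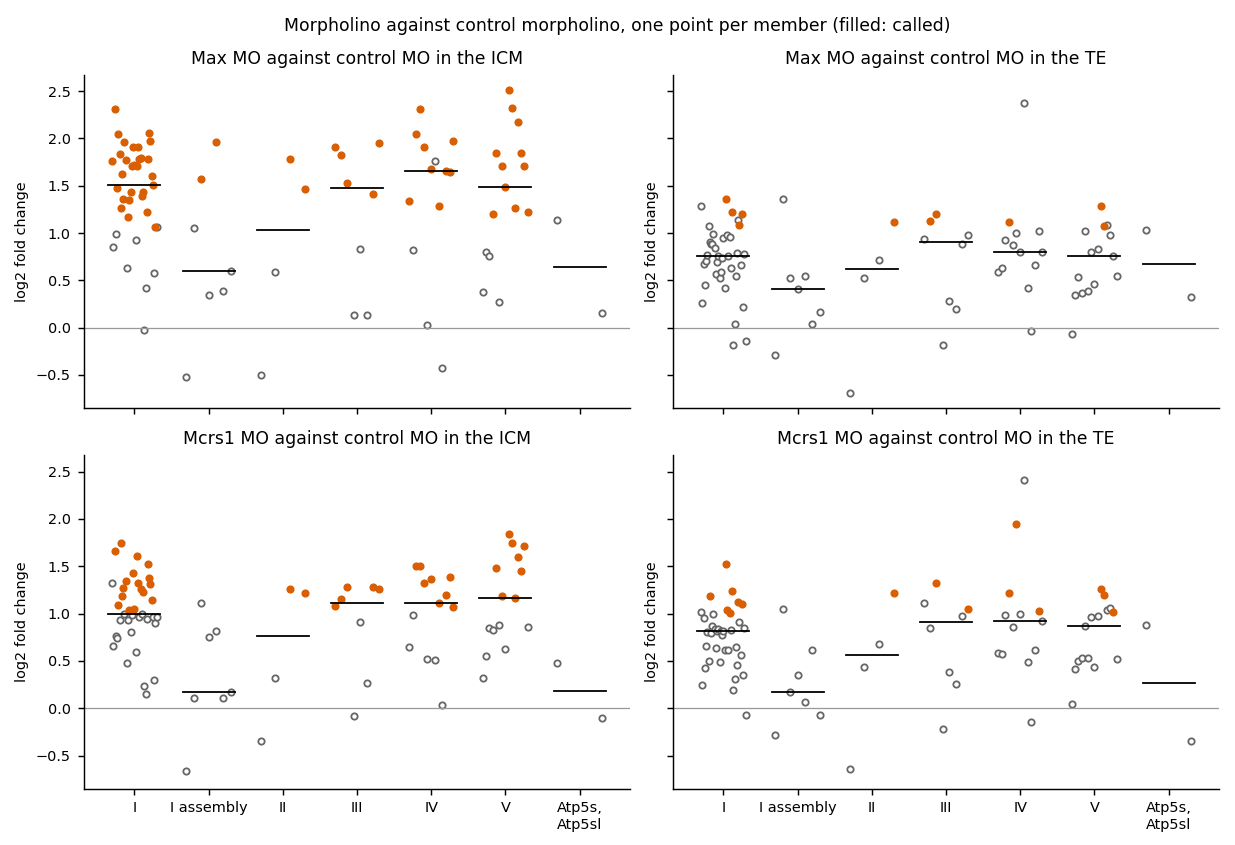
Log2 fold change (limma on log2(TPM + 1)) of each tested member against the control morpholino, by complex, for the 4 comparisons; filled points were called, and the bar is the median of the complex. Medians for complexes I, III, IV and V lie between 1.47 and 1.65 in the Max MO ICM, and no member was called lower in the 4 panels.

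All 5 complexes had members that rose in the ICM. In the Max MO ICM 29 of 37 tested genes of complex I rose, 2 of 4 of complex II, 5 of 8 of complex III, 9 of 13 of complex IV and 11 of 15 of complex V, and with Mcrs1 MO 17, 2, 5, 8 and 8 of these. Atp5g3 rose most in both, from 34.0 and 40.9 TPM to 275 and 172 TPM with Max MO (2.51 ± 0.25, adjusted p 0.000379) and to 127 and 147 TPM with Mcrs1 MO (1.84 ± 0.25, adjusted p 0.00441). Atp5h, a stalk subunit of the ATP synthase, was at 119 and 131 TPM in the control, 685 and 577 TPM with Max MO and 402 and 443 TPM with Mcrs1 MO. Every treated library of both genes was above both controls.

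Cox6a1, whose promoter with NRF1 and ETS matches is printed above, had 150 and 229 TPM in the ICM of control MO embryos, 907 and 946 TPM with Max MO (2.32 ± 0.24) and 538 and 520 TPM with Mcrs1 MO. Ndufa11, an accessory subunit of complex I, was at 14.3 and 11.9 TPM and then at 70.3 and 67.1 TPM with Max MO (2.31 ± 0.28). With Mcrs1 MO, Ndufa4 went from 93.9 and 57.2 TPM to 263 and 234 TPM (1.75 ± 0.27) and Atp5l, another ATP synthase subunit, from 59.9 and 69.4 TPM to 203 and 225 TPM (1.71 ± 0.23).

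In the TE, Ndufb6 of complex I was at 101 and 131 TPM in the control, 327 and 268 TPM with Max MO (1.36 ± 0.24, adjusted p 0.0252) and 366 and 304 TPM with Mcrs1 MO (1.53 ± 0.24, adjusted p 0.00982). Atp5h was at 163 and 213 TPM, 508 and 408 TPM, and 525 and 382 TPM in these groups. Uqcrb of complex III had 91.2 and 132 TPM in the control, 285 and 224 TPM with Max MO and 308 and 249 TPM with Mcrs1 MO. Ndufc2 rose with Max MO, from 67.0 and 62.4 TPM to 162 and 143 TPM (1.22 ± 0.19). Cox6b2 rose with Mcrs1 MO, from 3.92 and 2.05 TPM to 14.1 and 13.8 TPM (1.95 ± 0.46, adjusted p 0.0348).

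The number of TE calls depended on which libraries were included. All 10 calls of the Max MO TE were lost without any 1 of the 4 libraries compared, and all 16 of the Mcrs1 MO TE without control MO TE replicate 1, Mcrs1 MO TE replicate 1 or Mcrs1 MO TE replicate 2, while 17 were called without control MO TE replicate 2. They also fell to 3 and 9 without the filter and to 5 and 10 with quantile normalization, and those of the Max MO TE to 6 with a replicate block. In these fits the lone library was assumed to vary like the other groups, and the members' median log2 fold change stayed between 0.57 and 0.87. In the Mcrs1 MO ICM the 40 calls became 7 without Mcrs1 MO ICM replicate 1 and 15 without replicate 2, with medians of 1.04 and 1.03. Without control MO ICM replicate 1, the library with TE markers, 65 members rose with Max MO and 42 with Mcrs1 MO. Without control MO ICM replicate 2 the counts were 56 higher and 1 lower, and 47 higher and 1 lower.

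Some members did not follow. In the ICM, Sdha had 321 and 405 TPM under control MO, 241 and 269 TPM with Max MO (-0.50 ± 0.20, adjusted p 0.0795) and 284 and 285 TPM with Mcrs1 MO (-0.34 ± 0.20, adjusted p 0.273), and in the TE at 402 and 338, 246 and 212, and 261 and 213 TPM. In each comparison both treated libraries were under both controls, and none was called. Ndufaf1 had log2 fold changes of -0.52 (ICM) and -0.29 (TE) with Max MO and of -0.66 and -0.29 with Mcrs1 MO, and none was called. Uqcrc1 had 2003 and 1411 TPM in the ICM under control MO and 1685 and 2025 TPM under Max MO (0.14 ± 0.20), and in the TE -0.18 ± 0.20. Cox7a2l, which helps to join complexes III and IV, had 286 and 244 TPM in the ICM under control MO and 209 and 184 TPM under Max MO (-0.43 ± 0.21, adjusted p 0.150). With Mcrs1 MO, Atp5sl had log2 fold changes of -0.10 ± 0.52 (ICM) and -0.35 ± 0.52 (TE). At the other end, Cox7a1 had the largest values of the TE, 2.37 ± 0.66 with Max MO and 2.42 ± 0.66 with Mcrs1 MO (adjusted p 0.0774 and 0.0555), from 0 and 1.98 TPM in the control, and Ndufaf2 had 1.36 ± 0.49 with Max MO (adjusted p 0.146); none of these was called.

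**Figure D5:**
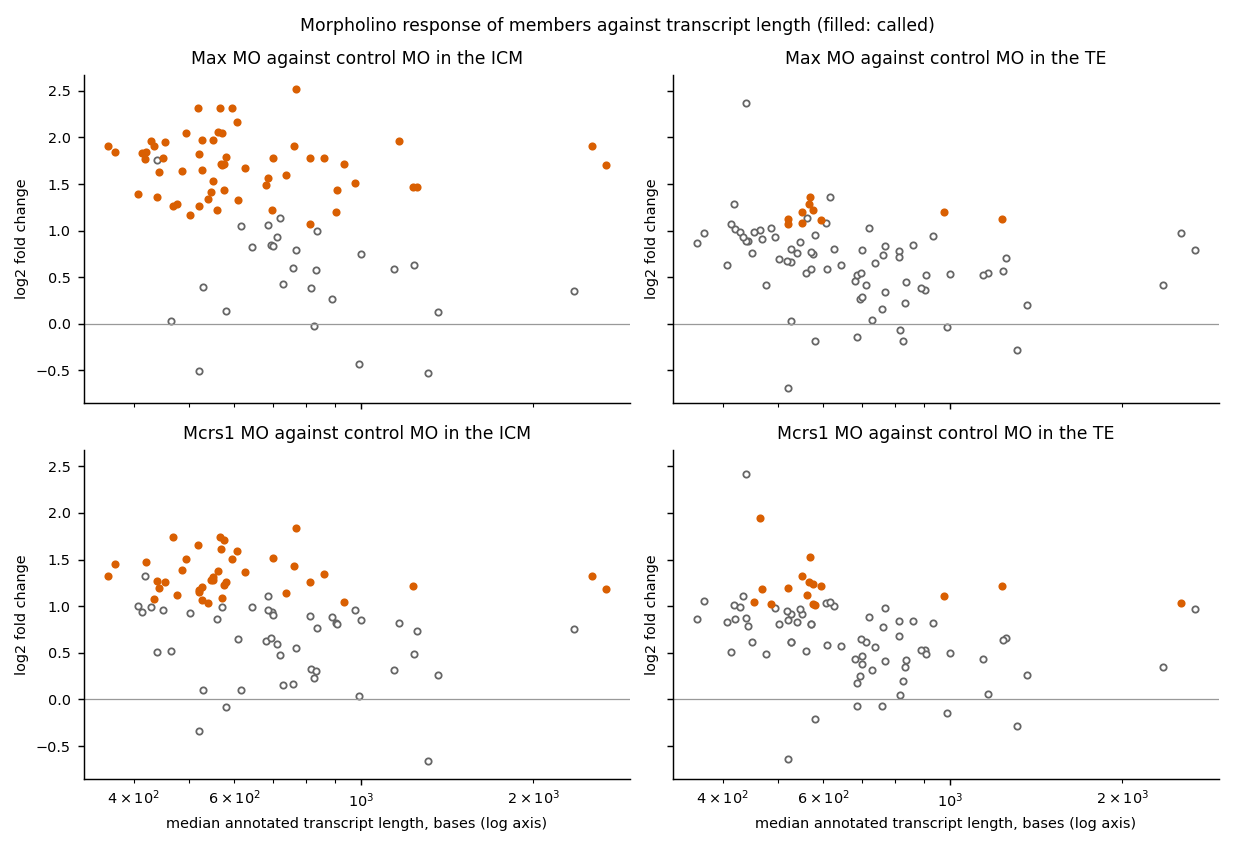
Log2 fold change of each tested member against the control morpholino (vertical) by its median annotated transcript length in bases (horizontal, log axis) for the 4 comparisons; filled points were called. The 28 shortest members have medians of 1.71 and 1.16 in the Max and Mcrs1 MO ICM, the 29 longest 1.07 and 0.82.

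The median response was larger for the shorter members. Members are short, with a median transcript length of 608 bases against 1372 for all genes (the median over annotated transcripts, partial models included). In the Max MO ICM 24 of the 28 shortest members, 19 of 28 in the middle and 15 of the 29 longest rose, with median log2 fold changes of 1.71, 1.51 and 1.07. In the Mcrs1 MO ICM the counts were 18, 13 and 9, with medians of 1.16, 1.04 and 0.82. In the TE the medians were 0.90, 0.76 and 0.53 with Max MO and 0.90, 0.81 and 0.53 with Mcrs1 MO, whereas the counts, 2, 6 and 2 and 5, 8 and 3, did not fall in this order. With a trend on length removed from each library, 49 members rose in the Max MO ICM and 22 in the Mcrs1 MO ICM. The TPM of annotated genes, relative to that of the unnamed loci, also moved with the groups, from 85.5% and 87.0% in the control MO ICM and 89.6% and 90.3% in the control MO TE to 93.6% to 94.4% in all treated libraries. With TPM rescaled over annotated genes 57 and 33 members rose in the Max and Mcrs1 MO ICM.

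ICM markers differed between the groups of ICM libraries, whereas TE markers of the control libraries lay on both sides of all treated ones. In the ICM libraries TE markers summed to 16260 and 622 TPM under control MO, 2770 to 5903 TPM with Max MO and 8114 to 11620 TPM with Mcrs1 MO, and ICM markers to 1424 to 1906, 1050 to 1166 and 408 to 984 TPM. Control MO ICM and control MO TE did not differ in any member by the test (0 of 86 higher and 0 lower, 1.72% and 1.2% of all genes), with 22 at an unadjusted p under 0.05 and a median log2 fold change of -0.31. The difference between the ICM and the TE in the response was tested directly. No member was called for Max MO or for Mcrs1 MO, and neither was any gene (0% in each direction). Without control MO ICM replicate 1, 4 members were called for Max MO and 1 for Mcrs1 MO, and without replicate 2, 7 and 0, all higher in the ICM. The median difference of the members was 0.69 for Max MO, with 36 of 86 at an unadjusted p under 0.05, and 0.29 for Mcrs1 MO, with 2. For all genes the medians were -0.01 and 0.17. The share of all genes at such a p was not computed, so these counts and the 22 above have no background. A larger response in the ICM than in the TE was thus not shown with all libraries.

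The other genes of the pathway, a list of 79 assembly factors, electron carriers, mitochondrial DNA factors and regulators outside the name rule, was read beside the members. Of 62 tested, 37 were lower and 5 higher at 6 hpa than in CC (59.7% and 8.06%, against 35.6% and 25.8% of all genes). At L2C 21 were higher and 1 lower than at E2C (33.9% and 1.61%, against 23.7% and 11.2%), at 4C 11 and 5 (17.7% and 8.06%, against 11.8% and 26.6%), and at 8C 13 and 4 (21.0% and 6.45%, against 11.5% and 8.23%). In the other steps 7 were higher and 1 lower at 14 hpa (11.3% and 1.61%, against 6.14% and 4.94%), 2 and 1 at E2C (3.23% and 1.61%, against 2.78% and 3.05%), and 4 and 0 at morula (6.45% and 0%, against 8.74% and 3.48%). From morula, 13 were higher and 4 lower in the ICM (21.0% and 6.45%, against 8.96% and 15%) and 13 and 3 in the TE (21.0% and 4.84%, against 11% and 10.8%), and 0 and 1 between ICM and TE (0% and 1.61%, against 1.47% and 3.87%). Cyc1, the cytochrome c1 of complex III, was at 119 to 166 TPM in CC, 0.171 to 1.78 TPM at 6 hpa and 244 to 382 TPM at morula. Cox17, a copper chaperone of complex IV, was at 421 to 584, 4.46 to 8.20 and 183 to 325 TPM in these groups. Etfb, a subunit of the electron transfer flavoprotein, rose by 6.70 on the log2 scale from 6 hpa to morula and Cox19 by 6.14.

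Cox10, Cyct and Ppargc1b were called higher at 6 hpa than in CC. Cox10, which makes heme for complex IV, was at 1.83 to 5.67 TPM in CC and 51.2 to 146 TPM at 6 hpa (4.63 ± 0.53), and Cyct, the testis cytochrome c, was listed at 0 in CC and at 6.08 to 13.9 TPM at 6 hpa. Ppargc1b, a coactivator of mitochondrial genes, was at 2.73 to 7.91 TPM at 6 hpa and at most 0.127 TPM at morula (-2.49 ± 0.32), and was the only listed gene called between SCNT ICM and TE (-1.70 ± 0.32). Gabpa, whose ETS motif is given above, was lower at 6 hpa than at morula, at 0.0286 to 0.730 TPM at 6 hpa and 15.1 to 42.1 TPM at morula.

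After the morpholinos 11 of the 62 rose and 7 fell in the Max MO ICM (17.7% and 11.3%, against 8.65% and 15.1% of all genes). With Mcrs1 MO, 5 rose and 1 fell there (8.06% and 1.61%, against 4.88% and 5.21%). In the TE the numbers were 1 and 1 with Max MO (1.61% each, against 1.04% and 1.45%) and 1 and 0 with Mcrs1 MO (1.61% and 0%, against 1.77% and 3.31%), near the background. Cox17 was the gene that rose in all 4, from 53.6 and 54.4 TPM in the control MO ICM to 197 and 241 TPM with Max MO and 166 and 192 TPM with Mcrs1 MO. Atpif1, the inhibitor of the ATP synthase, rose by 1.95 in the Max MO ICM, and Ttc19, an assembly factor of complex III, fell by 2.41. Pprc1, a coactivator related to Ppargc1b, fell in 3 of the 4, from 63.7 and 138 TPM in the control MO ICM to 11.5 and 28.9 TPM with Max MO (-2.29 ± 0.47) and 19.3 and 20.4 TPM with Mcrs1 MO (-2.18 ± 0.47).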

How the data were processed

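Smart-seq2 libraries of 3 CC, 53 SCNT and 12 morpholino samples were analysed. The authors trimmed reads with Cutadapt (version 1.16), aligned them to mm10 with HISAT2 and assembled and quantified transcripts with StringTie, and the processing notes also list Cufflinks and deepTools (other versions are not given in the sources used here). The deposited tables hold 1 row per gene with coverage (a mean read signal per base), FPKM and TPM. The deposited TPM, handled as a signal because assembled unnamed loci alone sum to 1000000 per library, were summed per gene name, and the deposited FPKM and coverage served only as a check of depth. No counts or read depths are given, so no counting interval was computed. The tables hold no comparisons between groups.

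Log2(TPM + 1) was tested with limma 3.58.1 (R 4.3.3, trended empirical Bayes) over genes with a mean of at least 1 TPM, with Benjamini-Hochberg adjustment over all genes tested. Calls required both an adjusted p below 0.05 and a 2-fold or larger difference. CC and SCNT libraries were fitted together for 6 hpa against CC, the 53 SCNT libraries for the other stages, and the 12 morpholino libraries on their own. Two-sided p-values are given, and fold changes on this scale understate changes of low genes. Shares of all genes were computed for calls, but not for overlap, sign or an unadjusted p. The procedure was tested on simulated data.

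Members and gene lists were chosen with earlier results of these data known. Genes were named by rule: the 2 most abundant members of each complex, up to 4 called rises and falls per comparison whose groups did not overlap (mean of at least 5 TPM), isoform sets, the 4 genes of complex II, the 3 members farthest above and below the members' median in each morpholino comparison, up to 3 rises and falls of other pathway genes, and Max and Mcrs1. Other genes named were chosen after their values were seen. Ndufa4 and Ndufa4l2 were kept with complex I by name, which need not be the complex that their proteins belong to. Replicate numbers were rated as possible pairing where every same-numbered pair of deviations correlated above 0.1. This held for 14 hpa against 6 hpa (r 0.142 to 0.39) and SCNT ICM against SCNT TE (r 0.131 to 0.3). It also held for control MO ICM against control MO TE (r 0.128). The own number gave the best correlation for only 2 of 6 in each SCNT comparison. In the control MO comparison it did so for 2 of 2. With 2 libraries in a group the deviations mirror each other, so any positive r gives 2 of 2 and this count adds nothing. Pairing was thus not established, and a replicate block was used only among the alternatives. Alternatives were another pseudocount (0.1), no filter, rescaled TPM, quantile normalization, removal of a length trend, a replicate block, subsets of replicates and leaving out each library. Transcript lengths came from GENCODE vM21 and promoters from RefSeq.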

Additional observations from a re-analysis of the deposited data

Results flagged for a closer look

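In 12 of 162 sets of libraries the highest or lowest library lay far from the others (Dixon's test at 95%), where chance flags about 1 in 20. Of the complex medians, complex I was low in morula replicate 2 (133.5 TPM), the complex I assembly factors were high in 8C replicate 1 (38.74 TPM), complex II was high in 8C replicate 2 (81.11 TPM) and complex III was high in 6 hpa replicate 6 (41.39 TPM). At 14 hpa, replicate 1 was high for Ndufa4 (496 TPM) and low for Cox5a (624.5 TPM). Sdhd was low in ICM replicate 1 (222.7 TPM) and Uqcr10 in 4C replicate 4 (979.6 TPM), while Cox4i1 was high in L2C replicate 2 (1490.0 TPM). Morula replicate 2 was also high for Atp5b (1672 TPM) and Sdha (146.6 TPM), and Sdha was high in 4C replicate 1 (24.24 TPM).

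The mitochondrially encoded subunits are not rows of their own, but unnamed assembled loci on the mitochondrial chromosome held medians of 21219 TPM in the SCNT L2C libraries (8054 to 172000 TPM) and 21206 TPM in the SCNT 4C libraries (15138 to 171710 TPM), next to 14413 TPM at 6 hpa (2101 to 27429 TPM) and 4073 to 5776 TPM in CC. Which transcripts these loci hold was not tested.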

How the results depend on the processing

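Of 230 counts of called members recomputed under an alternative, 191 stayed within 1.5 times, 25 were smaller and 14 larger, and of 1006 recomputed values of named members 920 kept their direction and their side of the threshold, 77 lost the call, 4 gained it and 5 changed sign. With a pseudocount of 0.1, morula against 8C gave 0 calls. Without the filter, SCNT ICM against TE gave 0, Max MO TE 3 and Mcrs1 MO TE 9. Quantile normalization gave 22 for SCNT TE against morula, 0 for SCNT ICM against TE, 5 for Max MO TE, 10 for Mcrs1 MO TE and 2 for control MO ICM against TE. Removing the length trend gave 19 for SCNT ICM against morula and 22 for the Mcrs1 MO ICM. Replicates 1 to 3 alone gave 23 for E2C against 14 hpa, 17 for 8C against 4C and 3 for SCNT ICM against TE, and replicates 4 to 6 alone 14 for E2C against 14 hpa, 13 for morula against 8C, 19 for SCNT ICM against morula and 0 for SCNT ICM against TE. Leaving out libraries gave 1 to 2 calls for morula against 8C, 0 to 1 for SCNT ICM against TE, 0 for Max MO TE, 7 to 48 for the Mcrs1 MO ICM, 0 to 17 for Mcrs1 MO TE, 0 to 2 for control MO ICM against TE, and 0 to 7 and 0 to 1 for the difference between ICM and TE in the response to Max MO and Mcrs1 MO. The result Atp5sl, Mcrs1 MO against control MO in the ICM had a log2 fold change of 0.004 with quantile normalization and -0.60 to 0.40 without single libraries, and Atp5sl, Mcrs1 MO against control MO in the TE had 0.0606 and -0.87 to 0.17, so its sign changed. The causes were not tested. Scaling moved the all-gene median log2 fold change, for example from -0.33 to 0.08 for 4C against L2C with the length trend removed.

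With the replicate block, morula against 8C gave 7 calls and Max MO TE 6, and the block moved no other count by over 1.5 times. The numbers of these 2 comparisons are not known to pair the libraries (r -0.229 to 0.177 and 0.03). Read counts are unknown, so no limit for genes listed at 0 can be given. The 2 libraries per morpholino group limit both the ICM and the TE comparisons.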
